A study of Mus musculus with 13 samples.

Results

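The effect of D-galactosamine with lipopolysaccharide was measured in livers that had all received dmPGE2, so that both sides of the comparison carried the prostaglandin. The 7 libraries were chosen by their labelled treatment alone, out of 13 in the study. Of them, 4 came from livers given dmPGE2 and then GalN/LPS (dmPGE2+GalN/LPS), and 3 came from livers given dmPGE2 without GalN/LPS (dmPGE2). The comparison was made over 14280 tested genes out of 54532 in the deposited table. All mice were C57 BL6 animals of wild-type genotype aged 8 weeks. In the dmPGE2+GalN/LPS group, dmPGE2 at 300 µg/kg was injected into the peritoneum 1 h before D-galactosamine at 500 mg/kg and lipopolysaccharide at 5 µg/kg, and the liver was taken 6 h after GalN/LPS. The dmPGE2 group had the same dose and the same 6 h in its labels, but no interval of its own is recorded, so both groups may not have been exposed for equally long. The other 6 libraries, 3 from mice given GalN/LPS alone and 3 from mice given saline, entered the fit as the same injury contrast without dmPGE2. The labels do not say that each library is a separate animal, so p-values measure the spread between these samples, which may be technical.

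dmPGE2 is a dimethylated, longer-lived analogue of prostaglandin E2, a lipid signal that acts on the receptors encoded by Ptger1 to Ptger4 and raises cAMP through Ptger2 and Ptger4. D-galactosamine is taken up by hepatocytes and traps uridine nucleotides, which limits hepatocyte RNA synthesis and sensitizes these cells to tumour necrosis factor. Lipopolysaccharide, the outer coat of Gram-negative bacteria, is sensed by macrophages through CD14 and TLR4 and sets off NF-kB and interferon programmes.

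Total counts were 16910816 to 17649675 in dmPGE2+GalN/LPS and 14829838 to 20777809 in dmPGE2 libraries. The groups separated on the first principal component of the 7 libraries, which held 83.4% of the variance. On the second, with 5.70%, dmPGE2+GalN/LPS replicate 1 lay at one end. The composition of the libraries differed between groups. Factors of the trimmed mean of M values (TMM), which scale each library, were 0.683 to 0.830 in dmPGE2+GalN/LPS and 1.16 to 1.28 in dmPGE2. Albumin took 6.69 to 11.4% of counts in dmPGE2+GalN/LPS and 5.66 to 6.16% in dmPGE2. Scaling by library totals in place of TMM moved the median log2 fold change of all tested genes to -0.62, against 0.13 with TMM, a shift of -0.75. For that reason the effect of this scaling is given beside each gene group. Per the files' annotation several named genes overlap a gene on the other strand (Prox1, Stab1, Ptger4, Casp9, Cyp51, Tbx3, Bid, Dbp, Junb and Tirap), and since the labels do not say whether counting used strand, their values may hold reads of that neighbour. Levels below are counts scaled to library size with TMM factors (CPM), log2 fold changes are dmPGE2+GalN/LPS over dmPGE2, and adjusted p-values are from edgeR's quasi-likelihood test with Benjamini-Hochberg adjustment over all tested genes, with a gene called at 0.05 or less.

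Within dmPGE2-treated livers GalN/LPS went with a broad change. Of the 14280 genes, 5043 rose (35.3%) and 4481 fell (31.4%). At least 2-fold changes among the called genes numbered 2671 higher (18.7%) and 2973 lower (20.8%). In either direction 66.7% of genes were called. The 35.3% and 31.4% are the background for the list counts below. The libraries of the groups did not overlap in 4803 genes that were higher (33.6%) and 4460 that were lower (31.2%). With library totals the split was 1523 higher (10.7%) and 7144 lower (50.0%), or 777 (5.44%) and 5427 (38.0%) at 2-fold or more, so the balance of directions depends on the scaling. The largest changes were picked among called genes averaging at least 5 CPM in the higher group. Such genes also needed an established symbol and no overlap between the groups. The largest rise among them was in Acod1, which encodes the enzyme that makes itaconate in activated macrophages. Acod1 (ENSMUSG00000022126, chr14:103046977-103056573, GRCm38) had 33.1, 24.9, 45.0 and 28.6 CPM in the 4 dmPGE2+GalN/LPS libraries, against 0.0375, 0.174 and 0.0422 CPM in the 3 dmPGE2 libraries. Its log2 fold change was 8.66 ± 0.42 (SE), and 9.46 without dmPGE2 replicate 2. Slfn4, a schlafen gene of myeloid cells, stood at 110.3 ± 37.5 CPM in dmPGE2+GalN/LPS and 0.513 ± 0.172 CPM in dmPGE2 (SD, n = 4 and 3). Among the largest falls at that level, Extl1, an exostosin-like gene, fell by 5.79 ± 0.45 on the log2 scale (SE; 6.52 without dmPGE2+GalN/LPS replicate 2). Inhbe, the liver-made activin E subunit, had 1.83, 1.503, 1.001 and 1.10 CPM in dmPGE2+GalN/LPS, against 75.2, 77.7 and 67.2 CPM in dmPGE2. Hhex, a homeobox factor of liver development, had 2.06, 3.48, 2.84 and 4.06 CPM in dmPGE2+GalN/LPS, against 146, 106 and 139 CPM in dmPGE2. Inhbe and Hhex fell by 5.74 and 5.39 on the log2 scale. Rnf43, a ubiquitin ligase that restrains Wnt signalling, and Usp2, a clock-driven deubiquitinase, fell by 5.04 and 4.93.

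**Figure D1:**
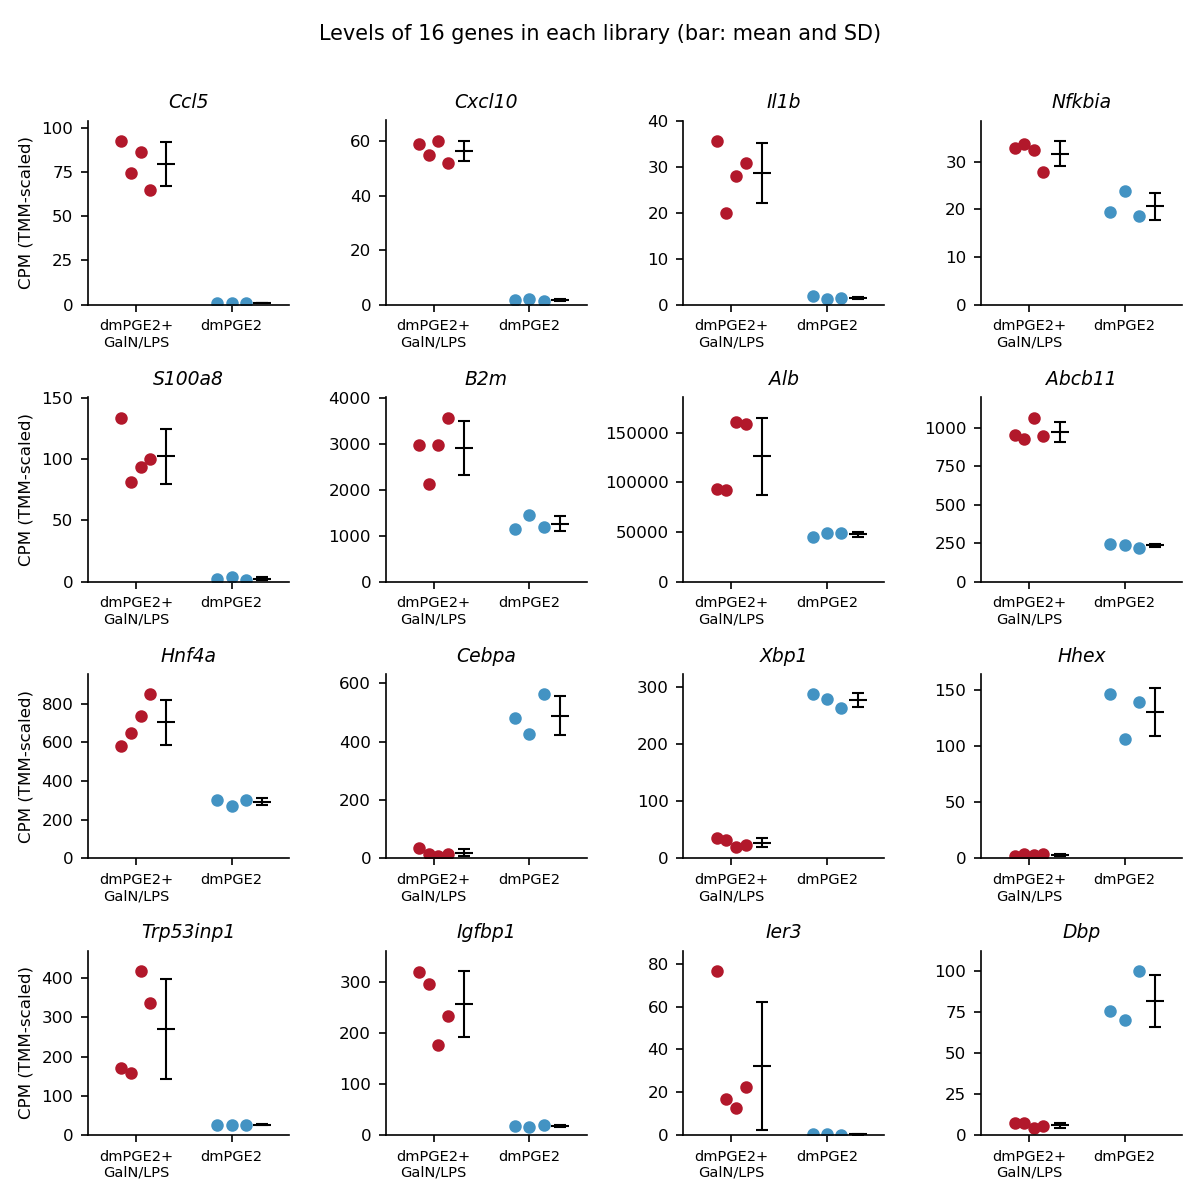
TMM-scaled CPM on a linear axis from 0 for 16 genes, with 1 point per library and the mean with SD beside the points (dmPGE2+GalN/LPS, n = 4, red; dmPGE2, n = 3, blue). In all 16 genes the 4 dmPGE2+GalN/LPS libraries lay wholly on 1 side of the 3 dmPGE2 libraries. That was a condition for genes picked as the largest changes. Ier3 was far higher in dmPGE2+GalN/LPS replicate 1 than in the other 3.

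Chemokines and cytokines rose in dmPGE2+GalN/LPS livers. Of 12 tested CC chemokines, 10 rose and none fell, with a median log2 fold change of 4.66 against 0.13 over all genes; with totals 8 rose and 1 fell, with a median of 3.94. Ccl5, which draws T cells and monocytes, had 92.4, 74.1, 86.2 and 64.5 CPM in dmPGE2+GalN/LPS, against 1.05, 0.929 and 0.886 CPM in dmPGE2. That is an 82.1-fold difference with no overlap (log2 6.36 ± 0.22, SE, adjusted p = 5.65e-11, edgeR). Ccl2, the main attractant of monocytes, averaged 11.6 ± 4.27 CPM in dmPGE2+GalN/LPS and 0.0765 ± 0.0983 CPM in dmPGE2 (SD, n = 4 and 3), a log2 fold change of 6.94 that was 8.53 without dmPGE2 replicate 1. Of 11 CXC chemokines, 7 rose and 1 fell (median 2.08; 5 and 1 with totals). Cxcl10, an interferon-induced attractant of T cells, had 58.9, 55.0, 59.9 and 52.1 CPM in dmPGE2+GalN/LPS, against 1.57, 1.97 and 1.35 CPM in dmPGE2. Cxcl2, a neutrophil attractant, was uneven among the dmPGE2+GalN/LPS libraries at 48.4, 11.8, 3.75 and 9.22 CPM, against 0.0375, 0.290 and 0.0844 CPM in dmPGE2, and even its lowest library stood above all 3. Its log2 fold change of 7.18 was 6.04 without dmPGE2+GalN/LPS replicate 1 and 8.11 without dmPGE2 replicate 2. The single CXC gene that fell was Cxcl12, the constitutive homing chemokine, at 110.5 ± 30.5 CPM in dmPGE2+GalN/LPS and 274 ± 3.33 CPM in dmPGE2. Cxcl12 held much of the summed level of all CXC chemokines, which was 305 to 332 CPM in dmPGE2+GalN/LPS and 295 to 302 CPM in dmPGE2.

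Of 15 tested cytokines and growth factors of inflammation, 12 rose and none fell (median 3.33; 9 and none with totals). Tnf, the cytokine that kills galactosamine-sensitized hepatocytes, had 6.91, 2.87, 7.09 and 5.08 CPM in dmPGE2+GalN/LPS, against 0.187, 0 and 0.127 CPM in dmPGE2 (log2 5.46 ± 0.48, SE, adjusted p = 1.09e-07, edgeR; 6.10 without dmPGE2 replicate 1). Il1b, the secreted product of inflammasome signalling, had 35.6, 20.02, 27.9 and 30.7 CPM in dmPGE2+GalN/LPS, against 1.80, 1.33 and 1.39 CPM in dmPGE2, an 18.6-fold rise. Il6, which drives the acute-phase response, was counted in all 4 dmPGE2+GalN/LPS libraries with 18 reads in all, and in none of the dmPGE2 libraries. Against a floor of 3 counts over the dmPGE2 group, that is at least 7.95-fold higher. Csf3, the neutrophil growth factor, had 73 counts in dmPGE2+GalN/LPS and 0 in dmPGE2, at least 32.2-fold higher by the same floor. Antagonists rose beside the agonists. Il10, the anti-inflammatory interleukin, had 141 counts in dmPGE2+GalN/LPS and 2 in dmPGE2, a ratio of 93.4 with a 95% counting interval of 25.4 to 779. Il1rn, the decoy ligand of the IL-1 receptor, rose by 3.33 on the log2 scale to 43.6 ± 13.5 CPM in dmPGE2+GalN/LPS, against 4.41 ± 2.06 CPM in dmPGE2.

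The NF-kB family moved in both directions. Of its 17 tested subunits and feedback inhibitors, 11 rose (64.7%) and 3 fell (17.6%), at a median of 0.95. With totals 6 rose and 4 fell, at a median of 0.18. Of all tested genes 35.3% rose and 31.4% fell with TMM, so falls were less frequent in this list. Tnfaip3, the A20 deubiquitinase that shuts off NF-kB, rose by 3.06 ± 0.28 (SE). Nfkbia, the IkB-alpha inhibitor, had 32.9, 33.7, 32.4 and 27.8 CPM in dmPGE2+GalN/LPS, against 19.4, 23.9 and 18.6 CPM in dmPGE2. Its rise of 0.62 flipped to -0.12 with totals (adjusted p = 0.55, edgeR), so its direction rests on the scaling. Rela, the p65 subunit, fell by 0.90. Of 14 upstream LPS sensors and adaptors, 8 rose (57.1%) and 4 fell (28.6%), or 3 and 5 with totals. The share that fell was below that of all tested genes, which was 31.4%, and 50.0% with totals. Cd14, the LPS co-receptor, had 41.0 ± 5.65 CPM in dmPGE2+GalN/LPS and 2.75 ± 0.921 CPM in dmPGE2 (SD, n = 4 and 3). The adaptors Tirap and Traf6, which carry the TLR4 signal, fell by 2.37 and 1.76. All 11 adhesion molecules and selectins rose (median 2.87; 10 with totals), among them Icam1, the endothelial ligand of leukocyte integrins (log2 1.83). Socs3, the inhibitor induced by STAT3, had 128, 39.97, 26.6 and 51.6 CPM in dmPGE2+GalN/LPS, against 10.4, 7.66 and 9.70 CPM in dmPGE2. Its highest value was in replicate 1, without which the log2 fold change was 2.08 against 2.73 with it, and the 4 libraries still did not overlap with dmPGE2.

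Interferon-stimulated genes and antigen presentation were higher too. Of 29 tested interferon-response genes, 23 rose and 4 fell (median 1.68; 16 and 6 with totals, median 0.93). Gbp5, a guanylate-binding protein of interferon-treated macrophages, averaged 20.6 ± 4.95 CPM in dmPGE2+GalN/LPS and 0.613 ± 0.0973 CPM in dmPGE2. Isg15, a ubiquitin-like modifier, had 72.6, 50.8, 54.5 and 36.1 CPM in dmPGE2+GalN/LPS, against 12.9, 14.5 and 7.68 CPM in dmPGE2. All 12 genes of MHC class I and the immunoproteasome rose (median 1.17; 7 with totals). B2m, the light chain of class I, had 2980.4, 2132, 2976 and 3565 CPM in dmPGE2+GalN/LPS, against 1138, 1454 and 1186 CPM in dmPGE2, with no overlap. H2-K1, a classical class I heavy chain, rose by 1.27 ± 0.15 (SE); its reads may be shared with near-identical H2 genes. MHC class II was less settled. Of its 7 tested genes 4 rose and none did with totals, and none rose without either dmPGE2+GalN/LPS replicate 3 or dmPGE2 replicate 2.

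The promoters of 3 of these genes are shown because they belong to groups that rose together and hold textbook inflammatory motifs. The windows are from RefSeq (GRCm38.p6), read 5′ to 3′ on the gene's strand and ending at the base before its annotated start, with motif matches in capitals. Cxcl2 lies at chr5:90903749-90903898 on the plus strand and holds the kappaB letters GGGANTTTC. Isg15 lies at chr4:156200819-156200938 on the minus strand, where 3 matches to the interferon-response letters GAAANNGAA overlap each other. B2m lies at chr2:122147537-122147686 on the plus strand, with 1 such match followed by 1 kappaB match on the opposite strand.
Cxcl2: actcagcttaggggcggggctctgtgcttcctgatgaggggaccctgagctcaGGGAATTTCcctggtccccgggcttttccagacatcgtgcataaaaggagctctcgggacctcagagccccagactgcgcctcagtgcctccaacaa
Isg15: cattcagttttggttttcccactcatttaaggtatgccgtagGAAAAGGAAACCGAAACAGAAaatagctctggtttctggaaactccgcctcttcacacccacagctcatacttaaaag
B2m: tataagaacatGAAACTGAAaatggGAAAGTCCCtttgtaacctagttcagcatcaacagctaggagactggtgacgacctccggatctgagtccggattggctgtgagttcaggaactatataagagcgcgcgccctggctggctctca
Both strands of the 250 bases before the start were searched in 10500 tested genes with a RefSeq window. The kappaB letters were found in 1.83% of genes at least 2-fold higher, 0.744% of genes at least 2-fold lower and 1.01% of all tested genes. The interferon-response letters were found in 10.97%, 6.65% and 7.81% of the same classes. The AP-1 letters TGANTCA were found in 9.41%, 5.12% and 5.99%. These are shares of letters in a window and say nothing of binding.

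Leukocyte transcripts were among the largest rises. In whole-liver RNA, more cells of a type and more RNA per cell cannot be told apart. All 11 tested neutrophil markers rose, with either scaling (median log2 5.56; 4.81 with totals). Their summed level was 280.0 to 436 CPM in dmPGE2+GalN/LPS and 5.99 to 9.93 CPM in dmPGE2. S100a8, a subunit of the calprotectin complex abundant in neutrophils, had 134, 81.6, 93.9 and 99.9 CPM in dmPGE2+GalN/LPS, against 1.80, 3.71 and 1.18 CPM in dmPGE2. Its partner S100a9 rose by 5.73, and Mmp8, the neutrophil collagenase, by 6.60. Ly6g, the defining surface marker of mouse neutrophils, had 67 counts in dmPGE2+GalN/LPS and 0 in dmPGE2, at least 29.6-fold higher. All 8 monocyte markers rose (7 with totals), among them Ly6c2 at 12.2 ± 3.64 CPM in dmPGE2+GalN/LPS and 0.517 ± 0.116 CPM in dmPGE2. The 12 phagocyte effector enzymes all rose with either scaling (median 3.19). Of 11 tested T and NK cell markers, 8 rose (5 with totals), and Gzmb, the cytotoxic protease granzyme B, rose by 4.60 (5.41 without dmPGE2 replicate 1). Of 7 B cell markers 2 rose (28.6%, below the 35.3% of all tested genes). That number was 1 without dmPGE2 replicate 1, and none rose with totals, when 1 fell. Erythroid and platelet markers moved with the leukocyte lists, with 7 of 8 higher (4 with totals) and a sum of 732 to 1177 CPM in dmPGE2+GalN/LPS and 414 to 485 CPM in dmPGE2. That count was 4 without dmPGE2+GalN/LPS replicate 1 or 3 or dmPGE2 replicate 2 or 3. The platelet chemokines Pf4 and Ppbp had the largest differences among them (log2 2.29 and 2.35), and the part of blood content in the leukocyte results was not tested.

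Resident cells gave a mixed picture. Of 12 hepatocyte markers, 11 rose and none fell (7 and none with totals), and their sum was 159290.0 to 242154 CPM in dmPGE2+GalN/LPS and 78879.8 to 88584 CPM in dmPGE2. Of 12 Kupffer cell and macrophage markers, 5 rose (41.7%) and 3 fell (25%), or 3 and 5 with totals. Of all tested genes 35.3% rose and 31.4% fell with TMM, so the list did not stand apart in its counts. Clec4f, the Kupffer cell lectin, had 93.0, 72.8, 92.1 and 48.5 CPM in dmPGE2+GalN/LPS, against 86.1, 70.0 and 60.9 CPM in dmPGE2. These ranges overlap and the gene was not called with TMM (log2 0.08), whereas with totals it was lower (log2 -0.67, adjusted p = 0.022, edgeR). Marco, a scavenger receptor for bacteria, had 127, 99.5, 142 and 106 CPM in dmPGE2+GalN/LPS, against 6.45, 18.3 and 3.88 CPM in dmPGE2 (log2 3.66, and 4.51 without dmPGE2 replicate 2). Slc40a1, the iron exporter ferroportin, fell by 2.13 ± 0.15 (SE). Of 12 sinusoidal endothelial markers, 9 rose and none fell (3 and 1 with totals). Stab1, an endothelial scavenger receptor, rose by 1.59, whereas Clec4g had a log2 fold change of 0.23 that was not called with TMM and -0.504, called, with totals. Lyve1 was uneven at 9.53, 57.7, 16.3 and 17.5 CPM in dmPGE2+GalN/LPS, with replicate 2 highest, against 3.26, 3.83 and 2.02 CPM in dmPGE2 (log2 3.07, and 2.26 without that library). The same replicate was highest in stellate cell and fibroblast markers, whose sum ranged over 118 to 358 CPM in dmPGE2+GalN/LPS and 116 to 150.3 CPM in dmPGE2. Of those 12 genes 3 rose (25%), below the 35.3% of all tested genes. Dcn, the collagen-binding decorin, had 50.1, 173, 66.3 and 115 CPM in dmPGE2+GalN/LPS, against 44.6, 48.9 and 55.3 CPM in dmPGE2. In the stellate list 6 rose without dmPGE2+GalN/LPS replicate 1, 1 fell without dmPGE2+GalN/LPS replicate 2, and none rose with totals. Of 10 pancreas and gut markers, Prss1, Ctrb1, Pnlip and Amy2a5 were at 0 in all 7 libraries. Their 2 tested members both rose, Cela1, an elastase, by 1.39, and Fabp2, a fatty acid binder, by 0.92 (log2 0.15, not called, with totals). The part of these shifts in cell markers in the other results was not tested.

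**Figure D2:**
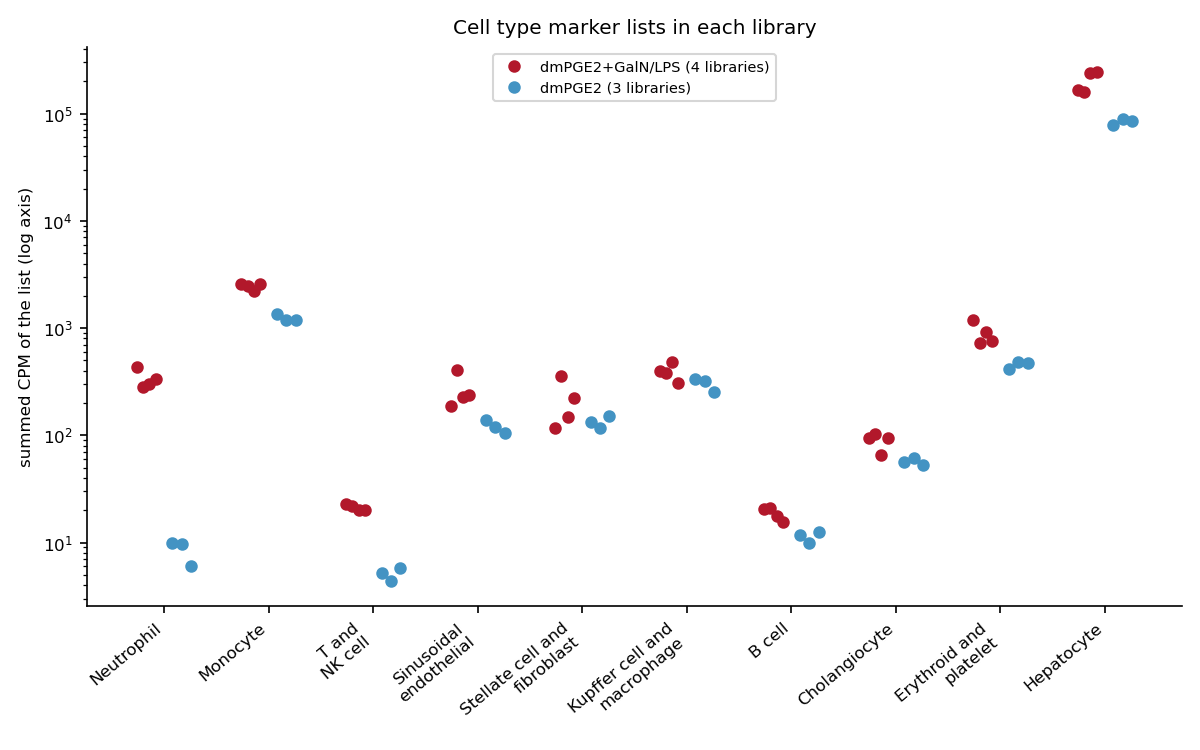
Summed TMM-scaled CPM of 10 cell type marker lists in each library on a log axis, with dmPGE2+GalN/LPS (4 libraries, red) left of dmPGE2 (3 libraries, blue). Neutrophil markers lay at 280.0 to 436 CPM in dmPGE2+GalN/LPS and 5.99 to 9.93 CPM in dmPGE2, while the Kupffer cell and macrophage sums overlapped between groups.

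Of 26 tested genes of TNF receptor signalling and apoptosis, 9 rose (34.6%) and 12 fell (46.2%), against 35.3% and 31.4% of all tested genes. Their median of 0.09, and -0.66 with totals (3 higher and 16 lower), lay near those of all genes, so the list as a whole did not stand apart in its rises. Those that fell included Tnfrsf1a, the TNF receptor (56.2 ± 11.7 CPM in dmPGE2+GalN/LPS and 88.9 ± 8.26 CPM in dmPGE2), and Fadd, the adaptor that recruits caspase 8 (log2 -2.15). Bid, which carries the death signal to mitochondria, had 2.46, 4.37, 2.34 and 3.30 CPM in dmPGE2+GalN/LPS, against 14.5, 13.6 and 15.7 CPM in dmPGE2. Casp9, the initiator caspase of the mitochondrial route, fell by 1.91, and Mcl1, a short-lived guard against apoptosis, by 0.64. Of 12 necroptosis and pyroptosis genes, 10 rose (83.3%) and none fell (median 1.79; 7 and none with totals). Casp4, the mouse caspase that senses cytosolic LPS, averaged 9.18 ± 0.671 CPM in dmPGE2+GalN/LPS and 0.864 ± 0.157 CPM in dmPGE2, with no overlap. Nlrp3, the inflammasome sensor, rose by 3.72 ± 0.34 (SE).

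Stress genes moved in both directions, as did all tested genes, of which 35.3% rose and 31.4% fell. Of 15 p53 targets, 7 rose (46.7%) and 6 fell (4 and 7 with totals), shares not far from those of all genes. Trp53inp1, a stress-induced cofactor of p53, had 170.1, 158, 418 and 336 CPM in dmPGE2+GalN/LPS, against 26.8, 26.2 and 24.5 CPM in dmPGE2, a 10.5-fold rise with replicates 3 and 4 highest (log2 3.39 ± 0.32, SE, adjusted p = 2.19e-07, edgeR). Cdkn1a, the p21 cell cycle inhibitor, rose by 3.12, while Mdm2, the ubiquitin ligase of p53, fell by 1.24. Of 23 immediate early genes, 15 rose and 3 fell (14 and 4 with totals). In Ier3, and in Gadd45b and Tob1 of other groups, dmPGE2+GalN/LPS replicate 1 stood far above the other 3. Ier3 had 76.5, 16.8, 12.5 and 22.5 CPM in dmPGE2+GalN/LPS, against 0.412, 0.348 and 0.0422 CPM in dmPGE2, and Gadd45b, which answers growth arrest signals, 109, 20.8, 15.6 and 28.2 CPM in dmPGE2+GalN/LPS, against 0.712, 0.638 and 0.506 CPM in dmPGE2. Junb, an AP-1 subunit, averaged 74.4 ± 49.9 CPM in dmPGE2+GalN/LPS and 19.0 ± 2.29 CPM in dmPGE2. Without replicate 1 the log2 fold changes of Ier3 and Gadd45b were 5.98 and 5.10, against 6.88 and 6.11 with it, and that of Ier3 was 7.48 without dmPGE2 replicate 1. Tob1, an antiproliferative mRNA-decay factor, was also highest in replicate 1 but fell, at 46.5, 10.2, 6.92 and 11.3 CPM in dmPGE2+GalN/LPS, against 124, 119.6 and 103 CPM in dmPGE2 (log2 -2.62, and -3.60 without that library).

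Of 18 endoplasmic reticulum chaperone and unfolded-protein genes, 8 rose (44.4%) and 5 fell (27.8%), shares near those of all genes (1 and 5 with totals). Xbp1, the factor that expands the secretory apparatus, had 36.1, 31.2, 18.9 and 23.2 CPM in dmPGE2+GalN/LPS, against 287, 279 and 263 CPM in dmPGE2, a 10.1-fold fall with no overlap. Its target Dnajb9 fell by 2.14. Calr, the chaperone calreticulin, rose by 0.95 with TMM and was not called with totals (log2 0.21). Of 13 heat shock genes, 6 rose and 4 fell, likewise near the background (3 and 7 with totals). Bag3, a co-chaperone of HSP70, fell, at 5.16 ± 1.78 CPM in dmPGE2+GalN/LPS and 24.4 ± 6.24 CPM in dmPGE2. Of 14 NRF2 targets, 8 rose and 2 fell (4 and 4 with totals). Hmox1, the haem oxygenase, rose by 2.56. Gstm1, a glutathione transferase with near-identical neighbours, rose by 1.67. Of 20 ATF4 targets of the integrated stress response, 11 rose and 5 fell (4 and 6 with totals). Nupr1, a stress-induced chromatin protein, rose by 3.80. Mt1, a zinc-binding metallothionein, rose by 1.57 with TMM, and its adjusted p with totals was 0.0552 (edgeR).

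Transcripts of plasma carriers, coagulation and complement proteins took a larger share of the dmPGE2+GalN/LPS libraries. Those of acute-phase proteins did not, at 3.37 to 7.36% of counts in dmPGE2+GalN/LPS and 4.12 to 8.27% in dmPGE2. Of 18 plasma carriers and apolipoproteins, 17 rose and none fell (median 1.12; 10 and 1 with totals, median 0.36). Alb had 93276, 92291, 161291 and 158657 CPM in dmPGE2+GalN/LPS, against 44655, 48692 and 49102 CPM in dmPGE2. All 4 libraries stood above all 3, replicates 3 and 4 most, for a log2 fold change of 1.41 ± 0.26 (SE) and 0.65 with totals. Ttr, the carrier of thyroxine, rose by 1.33 and Apoa1, the main protein of high-density lipoprotein, by 1.16. Of 22 coagulation genes, 19 rose and 1 fell (10 and 1 with totals), with Serpinc1, which encodes antithrombin, at 3859, 3454, 3931 and 4043 CPM in dmPGE2+GalN/LPS, against 1503, 1391 and 1699.8 CPM in dmPGE2. Of 23 complement genes, 22 rose and none fell (11 and none with totals), with C3 up by 1.35. With all libraries, acute-phase proteins rose less often than the other secreted products. Of 22, 6 rose (27.3%, below the 35.3% of all tested genes) and none fell, at a median of 0.65. With totals 2 rose and 3 fell, at a median of -0.09. Hp, which encodes haptoglobin, had 15031, 8329.5, 5187 and 6353 CPM in dmPGE2+GalN/LPS, against 5794, 8718 and 4453 CPM in dmPGE2, and the groups overlapped. Saa3, the serum amyloid gene also made by macrophages, rose by 3.79 ± 0.55 (SE; 4.73 without dmPGE2 replicate 2). The count of higher acute-phase genes was 13 without dmPGE2 replicate 2 and 11 without dmPGE2+GalN/LPS replicate 3. It was 4 (and 1 lower) without dmPGE2+GalN/LPS replicate 1 and 3 without either dmPGE2 replicate 1 or 3. Their summed level was 37331, 71158 and 32866 CPM in dmPGE2 replicates 1, 2 and 3. The list median was 1.08 without dmPGE2 replicate 2, against 0.50 and 0.48 without dmPGE2 replicates 1 and 3.

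Most of the transcription factors that specify hepatocytes fell, in contrast to the carrier, coagulation and complement genes. Abundant genes mostly rose, as given below. Of 578 genes averaging at least 100 FPKM, a unit explained there, 86.5% rose. Their median log2 fold change was 1.02 with TMM and 0.26 with totals. The part of level in this contrast was not tested. Of 25 tested factors, 19 fell and 5 rose (median -2.03), and with totals 20 fell and 2 rose (median -2.78). Cebpa, the C/EBP-alpha regulator of hepatic metabolism, named for its size after values were seen, had 36.9, 14.0, 8.67 and 15.7 CPM in dmPGE2+GalN/LPS, against 480.3, 427 and 562 CPM in dmPGE2. That is a 26.0-fold fall with no overlap (log2 -4.70 ± 0.38, SE, adjusted p = 4.68e-08, edgeR). Onecut1, also known as HNF6, had 1.11, 0.820, 0.5004 and 0.592 CPM in dmPGE2+GalN/LPS, against 33.3, 33.1 and 14.3 CPM in dmPGE2. Foxa3, a pioneer factor of liver genes likewise chosen after values were seen, fell by 4.59. Prox1, a homeobox factor of the hepatocyte network, fell by 3.28 on the log2 scale. Tbx3, a T-box factor of hepatoblasts outside this list, fell by 5.45; it had 1.03, 0.0683, 0.0834 and 0.254 CPM in dmPGE2+GalN/LPS, against 13.6, 14.6 and 19.2 CPM in dmPGE2, and a log2 fold change of -6.85 without replicate 1 of dmPGE2+GalN/LPS, its highest library there. Hnf4a, the nuclear receptor that holds hepatocyte identity, moved the opposite way, with 579.9, 649.8, 738 and 848 CPM in dmPGE2+GalN/LPS, against 304, 272 and 303 CPM in dmPGE2. Its rise was 1.26 ± 0.19 (SE) with TMM and 0.51, still called, with totals.

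Promoters of a secreted product that rose, a bile acid enzyme that fell and a ribosome factor that fell are set side by side, in the same RefSeq build and orientation. Alb lies at chr5:90460630-90460869 on the plus strand, with 2 matches to the D-box letters TTATGTAA, the element of PAR bZIP factors. Cyp8b1 lies at chr9:121916306-121916425 on the minus strand, with the HNF4 letters CAAAGTCCA. Rrn3 lies at chr16:13780549-13780698 on the plus strand, with the E-box letters CACGTG.
Alb: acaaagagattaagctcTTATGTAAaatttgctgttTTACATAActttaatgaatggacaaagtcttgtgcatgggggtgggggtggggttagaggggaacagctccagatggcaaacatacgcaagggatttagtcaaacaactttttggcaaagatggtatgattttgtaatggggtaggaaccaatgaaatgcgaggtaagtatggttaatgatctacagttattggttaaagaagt
Cyp8b1: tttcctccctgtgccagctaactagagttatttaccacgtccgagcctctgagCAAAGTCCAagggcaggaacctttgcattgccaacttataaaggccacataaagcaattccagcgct
Rrn3: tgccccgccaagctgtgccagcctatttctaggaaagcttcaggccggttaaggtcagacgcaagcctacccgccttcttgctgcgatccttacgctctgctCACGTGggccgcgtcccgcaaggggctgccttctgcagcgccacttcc
The D-box letters were in 1.08% of genes at least 2-fold higher, 0.613% of genes at least 2-fold lower and 0.676% of all tested genes. The HNF4 letters were in 0.968%, 0.482% and 0.581%, and the E-box letters in 8.39%, 10.4% and 9.78% of the same classes. The cAMP-response letters TGACGTCA were in 2.15%, 3.33% and 2.90%. Only matches to the stated letters were searched and capitalized, so variant sites stay in lower case. Neither matches nor shares say anything of binding.

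The balance of the metabolic lists depended on the scaling. With TMM each of those described here had more genes higher than lower. With totals this held for the drug-metabolizing cytochromes and the bile acid genes. It turned round for cholesterol and fatty acid synthesis (medians -0.25 and -0.30), gluconeogenesis, the urea cycle, galactose metabolism and fatty acid oxidation. Of all tested genes 10.7% rose and 50.0% fell with totals, at a median of -0.62. The medians of all these lists lay above that. Of 17 cytochrome P450 genes of drug metabolism, 14 rose and none fell (9 and 1 with totals). Cyp3a11, the main drug-oxidizing enzyme of mouse liver, averaged 5699.7 ± 1849 CPM in dmPGE2+GalN/LPS and 1535 ± 339 CPM in dmPGE2. Cyp2e1, which activates ethanol and paracetamol, rose by 1.04 with TMM and was not called with totals (log2 0.27). Of 18 bile acid genes, 12 rose and 3 fell (5 and 4 with totals). Abcb11, the canalicular bile salt export pump, had 954, 928, 1068 and 948 CPM in dmPGE2+GalN/LPS, against 245, 239 and 220.5 CPM in dmPGE2, a 4.15-fold rise. Cyp8b1, the enzyme that sets the share of cholic acid and whose promoter is printed above, had 112, 90.9, 132 and 97.9 CPM in dmPGE2+GalN/LPS, against 529, 396 and 650.3 CPM in dmPGE2. Outside this list, Slc10a2, the apical bile acid transporter of cholangiocytes, averaged 121 ± 39.9 CPM in dmPGE2+GalN/LPS and 16.1 ± 3.18 CPM in dmPGE2. Cyp26a1, the retinoic acid hydroxylase, rose by 4.49 ± 0.46 (SE).

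Cholesterol synthesis split within the pathway, with 10 of 20 genes higher and 7 lower (2 and 9 with totals; 4 lower without dmPGE2 replicate 1). The sterol demethylating enzymes Cyp51 and Nsdhl rose by 1.38 and 1.62. Of 16 fatty acid synthesis genes, 8 rose and 2 fell (4 and 6 with totals). Without dmPGE2 replicate 2 it was 5 and 4, 4 fell without dmPGE2+GalN/LPS replicate 2, and 1 fell without either dmPGE2 replicate 1 or 3. Among them was Scd1, the stearoyl desaturase, at 8298 ± 1543 CPM in dmPGE2+GalN/LPS and 2278 ± 349 CPM in dmPGE2. Among 16 genes of gluconeogenesis and glycogen, 9 rose and 3 fell (3 and 7 with totals). The 2 enzymes that bracket the pathway moved apart. Pck1, its entry enzyme, had 3004, 3034, 2944 and 2595 CPM in dmPGE2+GalN/LPS, against 1162, 1092 and 1181 CPM in dmPGE2. G6pc, which releases glucose, had 47.6, 43.9, 46.1 and 34.4 CPM in dmPGE2+GalN/LPS, against 150.2, 179 and 178 CPM in dmPGE2. Foxo1, the insulin-restrained activator of both, fell by 2.77. Igfbp1, an insulin-repressed and fasting-induced binding protein of IGF, had 319.9, 296, 176 and 234 CPM in dmPGE2+GalN/LPS, against 18.6, 15.4 and 19.1 CPM in dmPGE2, a 14.5-fold rise with no overlap. Ppp1r3g, a glycogen-targeting phosphatase subunit, rose by 3.79 ± 0.62 (SE).

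Of 19 genes of the urea cycle and amino acid breakdown, 14 rose and 1 fell (2 and 5 with totals; 8 higher without either dmPGE2 replicate 1 or 2, and 9 without dmPGE2+GalN/LPS replicate 1). The 1 that fell was Nags, which makes the activator of the cycle, at 2.06, 2.32, 2.92 and 2.37 CPM in dmPGE2+GalN/LPS, against 54.1, 55.1 and 70.3 CPM in dmPGE2. Cps1, the enzyme that Nags product activates, rose by 0.96 with TMM and was not called with totals (log2 0.22). Tat, the glucocorticoid-induced tyrosine aminotransferase, rose by 1.58 ± 0.31 (SE). In galactose and uridine nucleotide metabolism, the pathway that D-galactosamine enters, 10 of 16 genes rose and 3 fell (2 and 6 with totals; 5 lower without dmPGE2+GalN/LPS replicate 1). Umps, the last enzyme of uridylate synthesis, fell by 1.74. Ugp2, which makes UDP-glucose, rose by 0.75 with TMM and was at -0.02 with totals. The uridine phosphorylases Upp1 and Upp2 rose by 2.86 and 1.35. Of 19 clock genes, 13 fell and 2 rose (median -1.34; 16 and none with totals). The 2 higher were Clock and Npas2, named after their values were seen, and no more than 1 rose when any 1 of the 7 libraries was left out. Dbp, a PAR bZIP output of the clock, had 7.30, 7.04, 4.09 and 5.41 CPM in dmPGE2+GalN/LPS, against 75.4, 70.1 and 99.6 CPM in dmPGE2, and Bhlhe40, a repressor of the clock, fell by 2.77. The labels give no clock hour of collection. Of 21 growth hormone, IGF and hepatokine genes, 9 rose (42.9%) and 5 fell (23.8%), or 6 and 9 with totals. The TMM shares were not far from the 35.3% and 31.4% of all tested genes. Of 18 genes of fatty acid oxidation and ketogenesis, 12 rose and 2 fell (3 and 5 with totals).

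**Figure D3:**
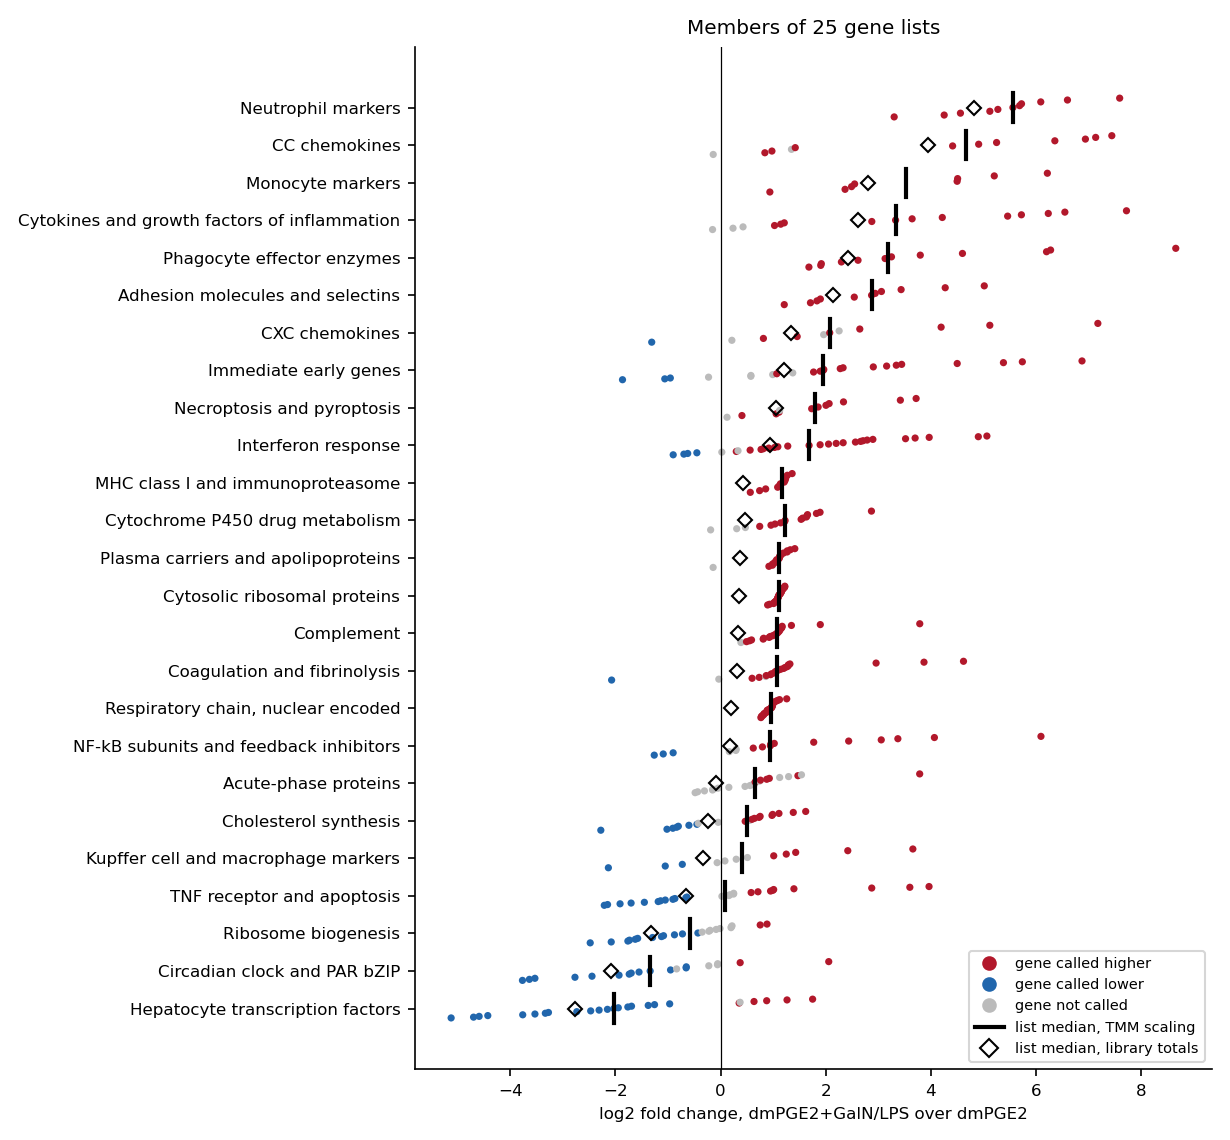
Log2 fold changes of the tested members of 25 gene lists (points; red called higher, blue called lower, grey not called), with the list median under TMM scaling (bar) and library totals (diamond). The medians of the neutrophil, monocyte, chemokine, cytokine, adhesion and phagocyte enzyme lists lie above 1 under either scaling, those of NF-kB genes and Kupffer cell markers at 0.18 and -0.34 with totals, those of hepatocyte transcription factors and clock genes below -1, and the totals move every list median lower.

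Genes of cytosolic ribosomal proteins and of ribosome biogenesis mostly moved apart. All 27 cytosolic ribosomal protein genes rose (median 1.11; 22 with totals, median 0.35), with Rps2 at 1049 ± 83.6 CPM and Rpl4 at 1063 ± 66.8 CPM in dmPGE2+GalN/LPS, against 491 ± 32.2 and 483 ± 16.3 CPM in dmPGE2. Both have processed pseudogenes that may share reads. Of 22 ribosome biogenesis genes, 12 fell and 2 rose (median -0.58; 19 and none with totals). Nolc1, a nucleolar phosphoprotein, fell by 2.48. Rrn3, which brings RNA polymerase I to ribosomal DNA and whose promoter is printed above, had 3.25, 3.96, 2.92 and 2.20 CPM in dmPGE2+GalN/LPS, against 16.5, 11.3 and 11.6 CPM in dmPGE2. Npm1, an abundant nucleolar chaperone, rose by 0.88 with TMM and was not called with totals. Abundant genes mostly rose, as given below. The part of level in the split between ribosomal protein and biogenesis genes was not tested. All 24 nuclear-encoded respiratory chain genes rose (median 0.96; 4 with totals). Of 13 genes of the mitochondrial genome, 1 rose and 2 fell (none and 5 with totals; 2 rose without dmPGE2+GalN/LPS replicate 2 or dmPGE2 replicate 3, and 1 fell without dmPGE2 replicate 1). mt-Co1 rose by 1.14 with TMM, and mt-Cytb was at 0.23, not called, with TMM and -0.53, called, with totals.

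Genes that make, carry, sense and degrade prostaglandin E2 were mostly higher. Of 13 tested, 10 rose and 2 fell (4 and 3 with totals). Ptger4, a cAMP-raising receptor of prostaglandin E2, was low at 1.51, 1.43, 1.17 and 2.20 CPM in dmPGE2+GalN/LPS, against 0.337, 0.116 and 0.253 CPM in dmPGE2, with no overlap (log2 2.64 ± 0.60, SE, adjusted p = 0.00106, edgeR). Ptger2 had 0.635, 1.16, 0.667 and 1.10 CPM in dmPGE2+GalN/LPS, against 0.225, 0.464 and 0.295 CPM in dmPGE2, and its call was lost with totals (adjusted p = 0.152, edgeR). Ptger1 and Ptger3 were not tested, with 3 and 2 counts in dmPGE2+GalN/LPS and 1 and 3 counts in dmPGE2. Ptgs2, the inducible cyclooxygenase, had 27 counts in dmPGE2+GalN/LPS and 1 in dmPGE2, a ratio of 35.8 with a 95% counting interval of 5.89 to 1464. Ptges, the inducible synthase of prostaglandin E2, rose by 2.30, while Ptges3, a constitutive synthase, fell by 1.49. Slco2a1, the prostaglandin uptake transporter, had 142 ± 36.2 CPM in dmPGE2+GalN/LPS and 50.8 ± 6.09 CPM in dmPGE2. Hpgd, the enzyme that inactivates prostaglandin E2, rose by 0.59 with TMM (adjusted p = 0.0298, edgeR). Its value was -0.18 with totals, and its call was lost when dmPGE2+GalN/LPS replicate 3 or 4 or dmPGE2 replicate 2 or 3 was left out (0.50 to 0.70 over all libraries left out in turn, with adjusted p up to 0.114, edgeR). Of 16 cAMP-responsive genes, 5 rose and 5 fell, which is 31.3% each way and near the 35.3% and 31.4% of all tested genes (4 and 10 with totals). Their summed level was 2765 to 3202 CPM in dmPGE2+GalN/LPS and 1260.1 to 1353 CPM in dmPGE2, most of it Pck1.

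The same injury contrast was available without dmPGE2, between GalN/LPS and saline livers, which share no library with the comparison above. Across the 14280 genes the 2 log2 effects had a Pearson r of 0.77, given as a description across genes that are not independent. Without dmPGE2, 3906 genes rose (27.4%) and 3650 fell (25.6%). Of the genes called higher with dmPGE2, 2598 were also called higher without it, which is 51.5% of the calls with dmPGE2 and 66.5% of those without. Of the genes called lower, 2833 were shared, or 63.2% and 77.6%. Calls in the same direction thus covered 5431 genes (38.0%). Opposite calls were made for 240 genes (1.68%), of which 116 rose with dmPGE2 and fell without it, and 124 fell with dmPGE2 and rose without it. The difference between both effects was tested as an interaction. It was higher with dmPGE2 for 2202 genes (15.4%) and lower for 2797 (19.6%), and with totals for 182 (1.27%) and 5209 (36.5%), so the number of higher ones rests mainly on the scaling.

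The effect of GalN/LPS on NF-kB and adhesion genes was mostly lower with dmPGE2 than without it. Not all of these were smaller rises, as Rela was at -0.90 with dmPGE2, against 0.19, not called, without it. Of the 17 NF-kB genes 14 had a lower interaction and none a higher one, with either scaling, and so did 10 of 11 adhesion genes. The pattern was not particular to them. Of 12 sinusoidal endothelial markers 11 had a lower interaction with either scaling. Of 12 Kupffer cell and macrophage markers 10 did with TMM and 12 with totals. None of these markers had a higher interaction, and the part of cell share was not tested. Nfkbia had a log2 effect of 0.62 with dmPGE2, against 2.70 without it (interaction -2.07 ± 0.19, SE, adjusted p = 5.76e-05, edgeR). Il1b had 4.22 with dmPGE2, against 7.47 without it, and Trem1, a receptor that amplifies myeloid inflammation, 5.12 with dmPGE2, against 9.79 without it. Interactions also hold any difference between the uninjured groups. Il1b averaged 28.5 CPM in dmPGE2+GalN/LPS and 1.51 CPM in dmPGE2, against 165 CPM in GalN/LPS and 0.915 CPM in saline. Nfkbia averaged 31.7 and 20.6 CPM, against 154 and 23.8 CPM, in the same order. Mefv, which encodes the inflammasome protein pyrin, and Thbs1, the matrix protein thrombospondin, had effects of 5.000 and 3.55 with dmPGE2, against 9.06 and 7.53 without it. Akap12, an anchor of protein kinase A, had 3.39 with dmPGE2, against 7.58 without it. Its level in dmPGE2+GalN/LPS was 2.62, 19.6, 4.50 and 4.06 CPM, and leaving out replicate 2, the highest, took the effect with dmPGE2 to 2.32. Leaving out dmPGE2 replicate 1 took that of Trem1 to 5.75. Ccl5 had 6.36 with dmPGE2, against 6.61 without it, and its interaction was not called. Among neutrophil markers 3 of 11 had a lower interaction with TMM and 7 with totals.

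Liver regulators went both ways. Among the highest interactions was that of Ppp1r3g, with an effect of 3.79 with dmPGE2, against -0.99 without it. Igfbp1 had 3.85 with dmPGE2, against 0.68 without it, and Trp53inp1 3.39 with dmPGE2, against 0.33 without it. Pck1 and Tat had effects of 1.34 and 1.58 with dmPGE2, against -0.96 and -1.003 without it. Setdb2, a histone methyltransferase, had 2.62 with dmPGE2, against 0.12 without it. These 6 interactions were called with either scaling. Cholesterol synthesis had 12 of 20 genes with a higher interaction (9 with totals) and none with a lower one. Alb had 1.41 with dmPGE2, against 0.26 without it, an interaction not called with totals. Among hepatocyte factors 12 of 25 had a lower interaction and 4 a higher one (17 and none with totals). Of all tested genes 19.6% had a lower and 15.4% a higher interaction (36.5% and 1.27% with totals). Onecut1 was at -5.13 with dmPGE2, against -1.04 without it, whereas Hnf4a had a higher interaction with TMM (0.98). Nags had -4.63 with dmPGE2, against -4.64 without it, and its interaction was not called with either scaling. Inhbe had -5.74 with dmPGE2, against -5.03 without it, and its interaction was called with totals only (adjusted p = 0.246 with TMM and 0.043 with totals, edgeR).

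**Figure D4:**
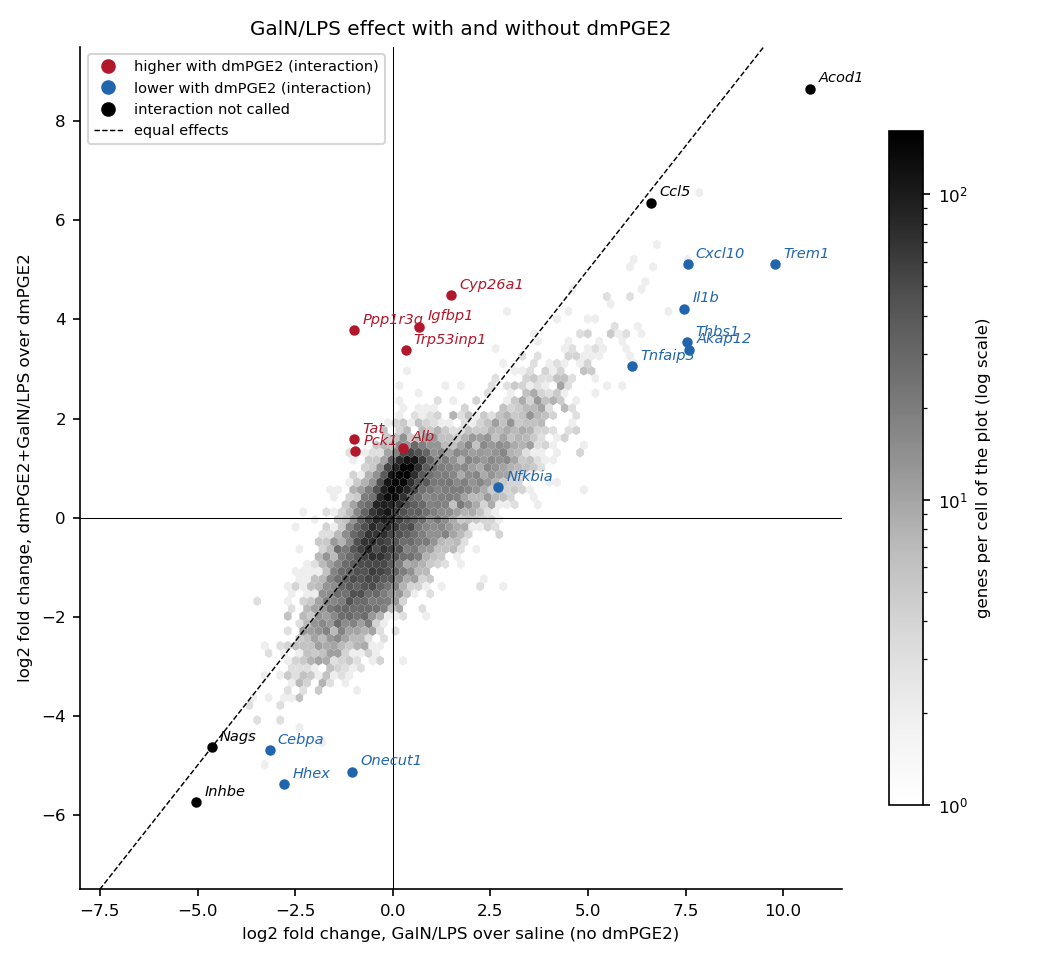
Log2 fold change of each of 14280 genes with dmPGE2 (vertical, dmPGE2+GalN/LPS over dmPGE2) against that without dmPGE2 (horizontal, GalN/LPS over saline), as a density with a dashed line of equal effects and 21 named genes coloured by the interaction test under TMM scaling. Trem1, Il1b and Nfkbia lie below the line and Ppp1r3g, Igfbp1, Trp53inp1 and Pck1 above it.

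Abundant and short transcripts sat on the higher side of the comparison. Of 578 genes with a mean level of at least 100 FPKM (the deposited unit, scaled for gene length and depth) over the 7 libraries, 86.5% rose and 2.08% fell. Their median log2 fold change was 1.02 with TMM and 0.26 with totals. In the shortest quartile of deposited gene length 47.1% rose and 17.4% fell, and in the longest 25.5% rose and 40.2% fell. Without dmPGE2 the medians of these quartiles were 0.15 and -0.02, against 0.61 and -0.19 with dmPGE2. The part of level and length in the results for gene lists was not tested.

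**Figure D5:**
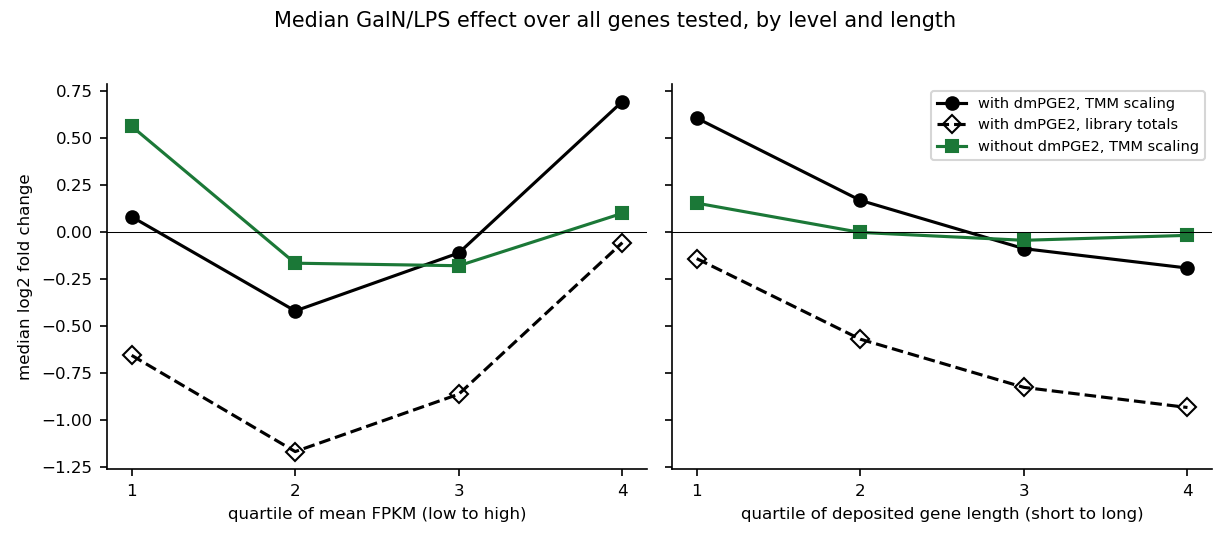
Median log2 fold change of all tested genes by quartile of mean FPKM (left) and of deposited gene length (right), with dmPGE2 under TMM scaling (filled circles) and library totals (diamonds), and without dmPGE2 under TMM scaling (squares). With dmPGE2 the median falls from 0.61 in the shortest to -0.19 in the longest quartile under TMM, and totals lower every quartile.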

How the data were processed

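RNA from mouse liver frozen in liquid nitrogen gave 1 µg of total RNA for each NEBNext Ultra library, per the labels' protocols. Reads were aligned with HISAT2 to GRCm38 (mm10), per the submitters' processing notes. Counter, annotation release and strand setting were not given in the sources used here. The authors deposited a count per gene and library and an FPKM value per gene and library. From the counts, edgeR 4.0.16 (R 4.3.3) fitted all 13 libraries by group after filterByExpr and TMM scaling, with a quasi-likelihood test and Benjamini-Hochberg adjustment at 0.05. The model had 9 residual and 6.80 prior degrees of freedom, and the tested genes held 99.9% of counts. Standard errors are the log2 fold change over the root of F. The deposited FPKM values gave levels by length and, with limma 3.58.1 on log2(FPKM + 1), an alternative in which low genes change less. DESeq2 1.42.0 was another. The fits were checked on simulated counts in which few genes changed, as many up as down. That check cannot speak to the choice of scaling. Total counts set the precision; counting intervals and floors of 3 counts cover counting error only.

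Named genes were the largest changes each way, the smallest adjusted p-values and highest FPKM of each list, the largest interactions, genes at 0 in 1 group, and a short set of prostaglandin and cytokine genes. Cebpa and Foxa3 were added after their values were seen. Members and lists were chosen with earlier results of these data known. Columns headed ALF without dmPGE2 were taken as GalN/LPS. Promoter windows came from RefSeq (GRCm38.p6). Some genes that the rule picks are not reported here.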

Additional observations from a re-analysis of the deposited data

Results flagged for a closer look

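In dmPGE2+GalN/LPS, 10 of 172 values of named genes and list sums had 1 of the 4 libraries far from the other 3 (above Dixon's critical ratio); chance flags about 1 in 20. In replicate 1, Ier3 (76.5 CPM), Gadd45b (109 CPM) and Tob1 (46.5 CPM) were highest, and so was the sum of NF-kB subunits and feedback inhibitors (218 CPM). Replicate 2 was highest in Umps (12.9 CPM), Akap12 (19.6 CPM), Lyve1 (57.7 CPM) and the sum of adhesion molecules and selectins (222 CPM), and lowest in the sum of cholesterol synthesis genes (2191 CPM). Cd14 was lowest in replicate 4 (32.7 CPM).

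The effect of GalN/LPS with dmPGE2 differed from that without it for 66 of the 118 named genes by edgeR's interaction test, and the values below are the log2 effect with dmPGE2 minus that without it. It was higher for 25 genes, of which 17 were also called with library totals. Those 17 were Ppp1r3g (4.78), Igfbp1 (3.18), Trp53inp1 (3.06), Cyp26a1 (2.999), Tat (2.58), Setdb2 (2.50), Slc10a2 (2.50), Upp2 (2.36), Pck1 (2.30), Mt1 (2.005), Scd1 (1.76), Nsdhl (1.73), Cyp51 (1.37), Ttr (1.22), Apoa1 (1.19), Abcb11 (1.10) and Serpinc1 (1.07). The others, not called with totals, were Gstm1 (1.48), Hp (1.37), Cyp3a11 (1.19), Alb (1.15), Hnf4a (0.98), G6pc (0.88), H2-K1 (0.64) and Rps2 (0.64). It was lower for 41 genes, all also called with totals. The lowest were Trem1 (-4.67), Akap12 (-4.19), Onecut1 (-4.09), Mefv (-4.06), Thbs1 (-3.98), Il1b (-3.25), Tnfaip3 (-3.06), Il1rn (-2.77) and Hhex (-2.61). Between these and the rest lay Cxcl10 (-2.43), Cd14 (-2.38), Upp1 (-2.34), Cdkn1a (-2.23), Icam1 (-2.14), Clec4g (-2.10), Nfkbia (-2.07), Bag3 (-1.91), Nlrp3 (-1.88), Dcn (-1.83), Rnf43 (-1.74), Casp4 (-1.73), Nolc1 (-1.73), Traf6 (-1.66), Gbp5 (-1.66), Xbp1 (-1.56), Cebpa (-1.54) and Clec4f (-1.51). The smaller differences were Bhlhe40 (-1.47), Mcl1 (-1.46), Foxa3 (-1.32), Hmox1 (-1.29), Rrn3 (-1.14), Rela (-1.09), Bid (-1.07), Casp9 (-0.90), Tnfrsf1a (-0.90), Stab1 (-0.89), Tirap (-0.89), Mdm2 (-0.88), Foxo1 (-0.78) and Slc40a1 (-0.71). None of the 66 was called in the opposite direction with totals.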

How the results depend on the processing

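Scaling by library totals gave 1523 genes higher and 7144 lower, 777 and 5427 at 2-fold, and 182 with a higher and 5209 with a lower interaction; no value here decides between the scalings. Among the 118 named genes, totals turned the sign of Nfkbia (-0.12), Ugp2 (-0.019), mt-Cytb (-0.53), Hpgd (-0.18), Clec4f (-0.67) and Clec4g (-0.50), and ended 8 calls besides those of Nfkbia, Ugp2 and Hpgd. With the 7 libraries alone, 1756 genes were at least 2-fold higher, and the cause was not tested. On log2(FPKM + 1), which shrinks low genes by construction, 1040 were at least 2-fold higher and 1225 lower with a filter, and 1019 and 1219 without. DESeq2, RLE factors and no count filter left all 118 named calls and directions as they were. Leaving out 1 library gave 4579 to 4904 higher and 4166 to 4409 lower, 2557 to 2684 and 2888 to 2990 at 2-fold, and interactions of 1370 (without GalN/LPS replicate 3) to 2705 higher and 2039 to 3011 lower.

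With the replicate number as a block, 4684 genes were higher and 4214 lower, 2562 and 2878 at 2-fold, with 1558 higher and 2153 lower interactions, and the calls of Hpgd and Dcn were lost. Same-numbered libraries did not deviate together (correlations -0.053 to 0.072). They were compared only between dmPGE2+GalN/LPS and dmPGE2, and between GalN/LPS and saline. With so few libraries and no other groups compared, this cannot exclude a pairing or a shared batch. Genes with few counts, such as Il6, Ptger2 and Ptgs2, have wide errors at this depth.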
